A study of Homo sapiens with 18 samples.

Results

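The extracellular proteases of the matrix metalloproteinase (MMP) and ADAMTS families and their tissue inhibitors (TIMPs) were followed in neuroblastoma cells that carried short hairpin RNAs against the aryl hydrocarbon receptor. Members were every gene of the count tables whose symbol is MMP, ADAMTS or TIMP followed by a number, with an A or B after it where the MMP symbol has that letter. The rule took 47 genes out of 39368, namely 24 MMP, 19 ADAMTS and 4 TIMP genes, and it used no measured value. Of the MMP genes, MMP23A is annotated as an unprocessed pseudogene. RNA sequencing of ribosome-depleted total RNA was done in the established human lines BE2C and Kelly, which grew from neuroblastoma with an amplified MYCN oncogene. Each line had 3 groups of 3 libraries, 18 in all. The control group carried pLKO-GFP, and the other groups carried shAhR-1 or shAhR-2, hairpins labelled as AhR knockdown. No group here was untreated and no time is stated, and the labels do not say that replicates were separate cultures. The p-values therefore measure only the spread among the sequenced samples, and that spread may be technical.

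MMPs are zinc proteases that cleave collagens, gelatin and other matrix and cell surface proteins, and they are made as inactive zymogens. Membrane-type MMPs stay attached to the cell surface, where some of them activate secreted MMPs. ADAMTS proteases are secreted and bind the matrix through thrombospondin repeats, and different members trim procollagens, cut proteoglycans or cut von Willebrand factor. TIMPs bind the active site of MMPs and block it, TIMP3 also inhibits several ADAMTS proteases, and TIMP2 takes part in the activation of proMMP2 by MMP14 at the cell surface.

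AHR, the target of the hairpins, had few counts. The BE2C libraries held 4, 4 and 6 AHR counts in the control, 8, 0 and 0 with shAhR-1 and 0, 0 and 0 with shAhR-2. In Kelly the counts were 4, 26 and 29 in the control, 18, 11 and 22 in the libraries labelled shAhR-1 and 0, 4 and 0 with shAhR-2. AHR fell in Kelly with shAhR-2 (log2 fold change ± standard error −3.84 ± 0.81, edgeR adjusted p = 3.41e-05), although 1 library of each group overlapped, and was not called in the Kelly libraries labelled shAhR-1 (−0.10 ± 0.54, edgeR adjusted p = 0.889). It was too low to test in BE2C. A fall of AHR was therefore tested and called in Kelly with shAhR-2 alone, and a direction given for either hairpin in BE2C or for the Kelly libraries labelled shAhR-1 compares the group with its controls and carries no tested fall of AHR. Library totals lay between 32799682 and 45469353 counts. BE2C shAhR-2 replicate 1 stood apart from its group, with chi-square values per degree of freedom of 20.9 and 22.8 against its group members, where other pairs of a group gave 2.81 to 6.59. Mitochondrial genes took 25.1% of its counts and 20.5% in each of its group members. Their share was 18.8 to 19.4% in the BE2C controls and 24.3 to 24.9% with shAhR-1, and in Kelly it was 14.5 to 15.6% in the controls, 17.4 to 17.7% in the libraries labelled shAhR-1 and 15.2 to 15.8% with shAhR-2. The part of this share in the members' values was not tested. The neuroblastoma marker genes summed to between 4261 and 11985 CPM (the count per 1000000 of a library size scaled by the trimmed mean of M values) in every library, and the leukocyte markers to at most 1.38 CPM. The neuroblastoma sum was 5894 to 6061 CPM in the BE2C controls, 4996 to 5040 with shAhR-1 and 4261 to 4304 with shAhR-2. In Kelly it was 11318 to 11985 CPM in the controls, 6490 to 6602 in the libraries labelled shAhR-1 and 8806 to 8948 with shAhR-2.

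The test fitted to all genes with edgeR's quasi-likelihood method took 15732 genes in BE2C and 15871 in Kelly, and a gene is called when its Benjamini-Hochberg adjusted p over those genes is below 0.05. Of the 47 members, 30 were abundant enough to test in BE2C, 31 in Kelly and 28 in both. Another 14 members were tested in neither line, and none of those exceeded 16 counts in a library. They were ADAMTS8, ADAMTS18, TIMP4 and 11 MMP genes (MMP3, MMP7, MMP8, MMP10, MMP12, MMP13, MMP19, MMP20, MMP23A, MMP26 and MMP27). MMP7, MMP8, MMP26 and MMP27 had 0 counts in all 18 libraries. That allows up to 3 counts in a library, a limit for counting error only that takes each count as independent. The secreted collagenases, stromelysins and matrilysins of the chromosome 11 cluster were thus hardly detected. MMP1, the interstitial collagenase, was the cluster member that could be tested, and only in BE2C (0.340, 0.738 and 0.419 CPM in its controls, 0 counts in every Kelly library).

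Levels of different genes were compared roughly, per kilobase of exon. This length joins the exons of all transcripts, so a gene with exons outside its expressed transcripts comes out too low. On this scale MMP2 was the most abundant member in the controls of both lines. It stood at 78.5 CPM per kb in BE2C and 24.0 CPM per kb in Kelly. MMP2 is gelatinase A, a secreted protease that degrades basement membrane collagen. TIMP2 followed at 21.2 and 18.1 CPM per kb. In BE2C the next levels were those of ADAMTS19 (19.8 CPM per kb), MMP24 (17.0 CPM per kb) and ADAMTS3 (9.99 CPM per kb). In Kelly they were those of MMP24 (9.65 CPM per kb), TIMP1 (5.70 CPM per kb) and MMP15 (4.62 CPM per kb). ADAMTS20, ADAMTS12, ADAMTS4 and MMP15 were several-fold higher in the Kelly controls, and ADAMTS19, ADAMTS3 and MMP2 in the BE2C controls.

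**Figure D1:**
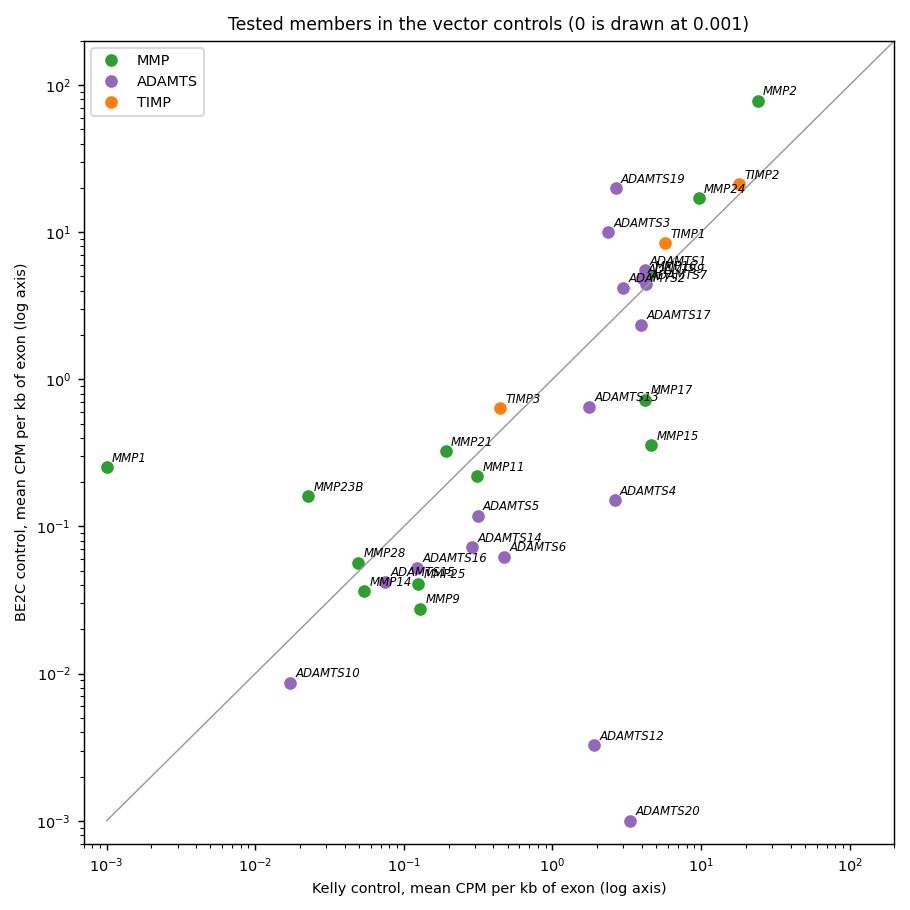
Mean level of each tested member in the pLKO-GFP controls, as CPM per kilobase of exon on log axes, Kelly horizontally and BE2C vertically, coloured by family, with the line of equal levels. MMP2 lies at the upper right in both lines, ADAMTS12 and ADAMTS20 lie at the bottom because BE2C had 4 and 0 counts of them, and MMP1 lies at the left edge because Kelly had 0 counts.

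With shAhR-2 in BE2C, 19 of 30 tested members rose and 5 fell, and the median log2 fold change was 0.87 against 0.03 for all genes. In that comparison 38.0% of all tested genes rose and 37.2% fell. Without shAhR-2 replicate 1 of BE2C, 17 rose and 5 fell, MMP2 and MMP25 being the calls lost. In Kelly shAhR-2, 13 of 31 members rose and 8 fell, where 37.2% of all genes rose and 38.2% fell, and the members' median was 0.20 against −0.01. With shAhR-1 in BE2C, 6 of 30 members rose (25.2% of all genes did) and 9 fell (27.1% of all genes), with a median of −0.20 against 0.01. In the Kelly libraries labelled shAhR-1, 11 of 31 rose (29.6% of all genes) and 7 fell (31.0% of all genes), with a median of 0.11 against 0.00. In BE2C with shAhR-2 the members' share of risers was above that of all genes and their share of fallers below it. The shares in the other 3 comparisons lay nearer those of all genes. Of the risers in BE2C with shAhR-2, at least ADAMTS10, ADAMTS15 and MMP28 were abundant enough to test only through the shAhR-2 libraries. Such members could hardly be called lower, and they were not taken out of the count or the median. The shares of all genes come from the same filter. The hairpin groups of a line share their controls, so their values are given side by side. Every fold change is given as log2 with its standard error, and gene positions are on GRCh38.

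**Figure D2:**
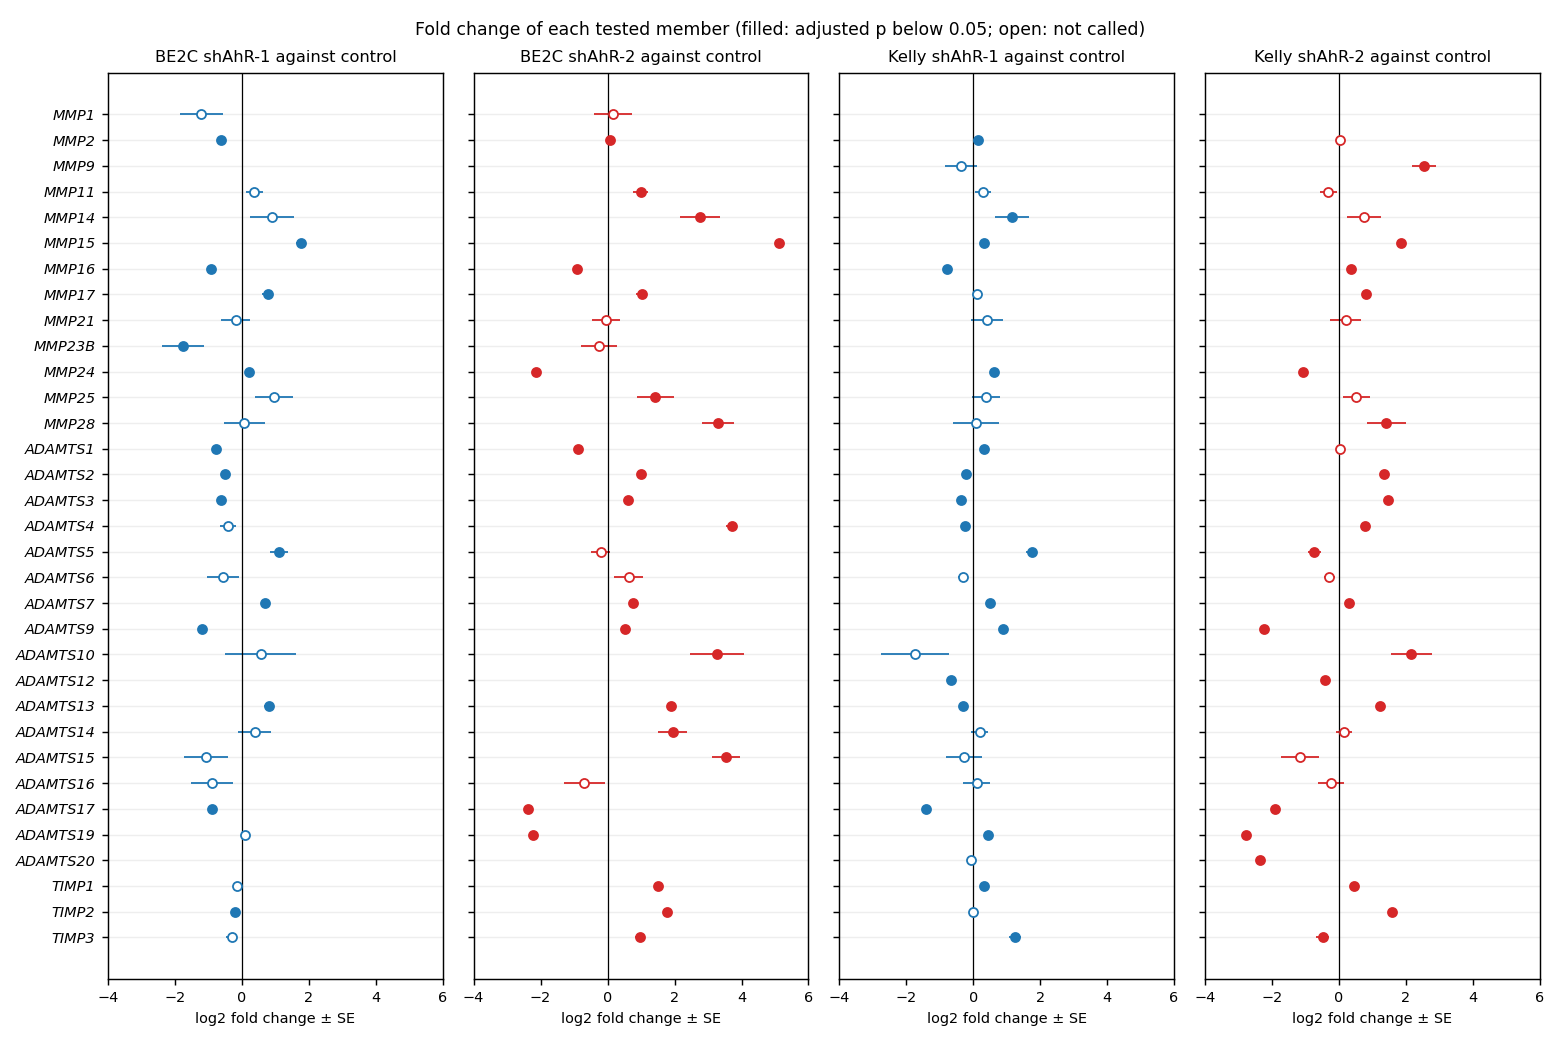
Log2 fold change with its standard error for each tested member, in 4 panels for each hairpin against the control of its line; filled points have an adjusted p below 0.05 and open points were not called. MMP15 reaches 5.13 in BE2C with shAhR-2, the highest value of the 4 panels, and ADAMTS19 reaches −2.78 in Kelly with shAhR-2, the lowest.

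Among the inhibitors, TIMP1 and TIMP2 rose with shAhR-2 in both lines, TIMP3 rose in BE2C and fell in Kelly, and TIMP4 was hardly detected. TIMP2 (ENSG00000035862.12, chromosome 17, 78852977 to 78925387, minus strand) was the most abundant inhibitor. In BE2C, TIMP2 stood at 124, 121 and 113 CPM in the control libraries, 100.2, 105 and 104 CPM with shAhR-1 and 397, 411 and 413 CPM with shAhR-2. TIMP2 in Kelly was at 105, 103 and 99.1 CPM in the controls, 98.9, 105 and 102 CPM in the libraries labelled shAhR-1 and 308, 311 and 301 CPM with shAhR-2. In each line the 3 shAhR-2 libraries stood far above every other library, with no overlap. The fold change with shAhR-2 was 1.77 ± 0.03 (edgeR adjusted p = 1.14e-29) in BE2C and 1.59 ± 0.03 (edgeR adjusted p = 2.51e-41) in Kelly. With shAhR-1 TIMP2 fell a little in BE2C (−0.21 ± 0.04) and was not called in Kelly (0.00 ± 0.03). TIMP2 shares 10.03% of its exonic bases with other genes, CEP295NL on the same strand among them. CEP295NL rose with shAhR-2 too (2.31 ± 0.57 in BE2C and 1.72 ± 0.61 in Kelly), but no group mean of it exceeded 0.575 CPM.

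TIMP1 (ENSG00000102265.11, chromosome X, 47582313 to 47586789, plus strand) is a secreted inhibitor of most soluble MMPs. In BE2C, TIMP1 stood at 13.0, 12.8 and 13.1 CPM in the control libraries, 11.8, 12.4 and 11.1 CPM with shAhR-1 and 34.9, 37.5 and 37.4 CPM with shAhR-2. TIMP1 in Kelly was at 8.73, 7.68 and 9.94 CPM in the controls, 11.6, 9.90 and 11.2 CPM in the libraries labelled shAhR-1 and 12.3, 12.3 and 11.7 CPM with shAhR-2. The shAhR-2 libraries of BE2C lay far above the rest, while in Kelly they lay above the controls by a narrow margin. The change with shAhR-2 was 1.49 ± 0.07 (edgeR adjusted p = 2.63e-19) in BE2C and 0.46 ± 0.10 (edgeR adjusted p = 2.47e-05) in Kelly. In the Kelly libraries labelled shAhR-1 TIMP1 was 0.31 ± 0.10, with overlapping groups and a call lost without control replicate 2 (0.22, adjusted p = 0.0625). The BE2C value with shAhR-1 was −0.14 ± 0.08 and was not called.

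TIMP3 (ENSG00000100234.11, chromosome 22, 32801701 to 32863043, plus strand), which binds to the matrix and inhibits MMPs, ADAMs and some ADAMTS enzymes, was low, at 0.634 CPM per kb in the BE2C controls, where TIMP1 stood at 8.44 CPM per kb. In BE2C, TIMP3 stood at 3.11, 2.83 and 2.81 CPM in the control libraries, 2.41, 2.07 and 2.57 CPM with shAhR-1 and 5.38, 5.62 and 6.23 CPM with shAhR-2. TIMP3 in Kelly was at 2.08, 2.26 and 1.75 CPM in the controls, 4.68, 4.33 and 5.39 CPM in the libraries labelled shAhR-1 and 1.499, 1.23 and 1.64 CPM with shAhR-2. In BE2C the shAhR-2 libraries were the highest, and in Kelly those labelled shAhR-1 were. TIMP3 rose in BE2C with shAhR-2 (0.98 ± 0.15, edgeR adjusted p = 6.8e-07) and, in Kelly, in the libraries labelled shAhR-1 (1.24 ± 0.18, edgeR adjusted p = 3.73e-08). Its fall in Kelly with shAhR-2 (−0.48 ± 0.20, edgeR adjusted p = 0.0271) was lost in 4 alternatives, with adjusted p up to 0.122 without shAhR-2 replicate 2. TIMP4 had 2, 1 and 0 counts in the BE2C controls and 0 in the 6 hairpin libraries of that line, too few to test. No Kelly library held more than 3 TIMP4 counts.

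**Figure D3:**
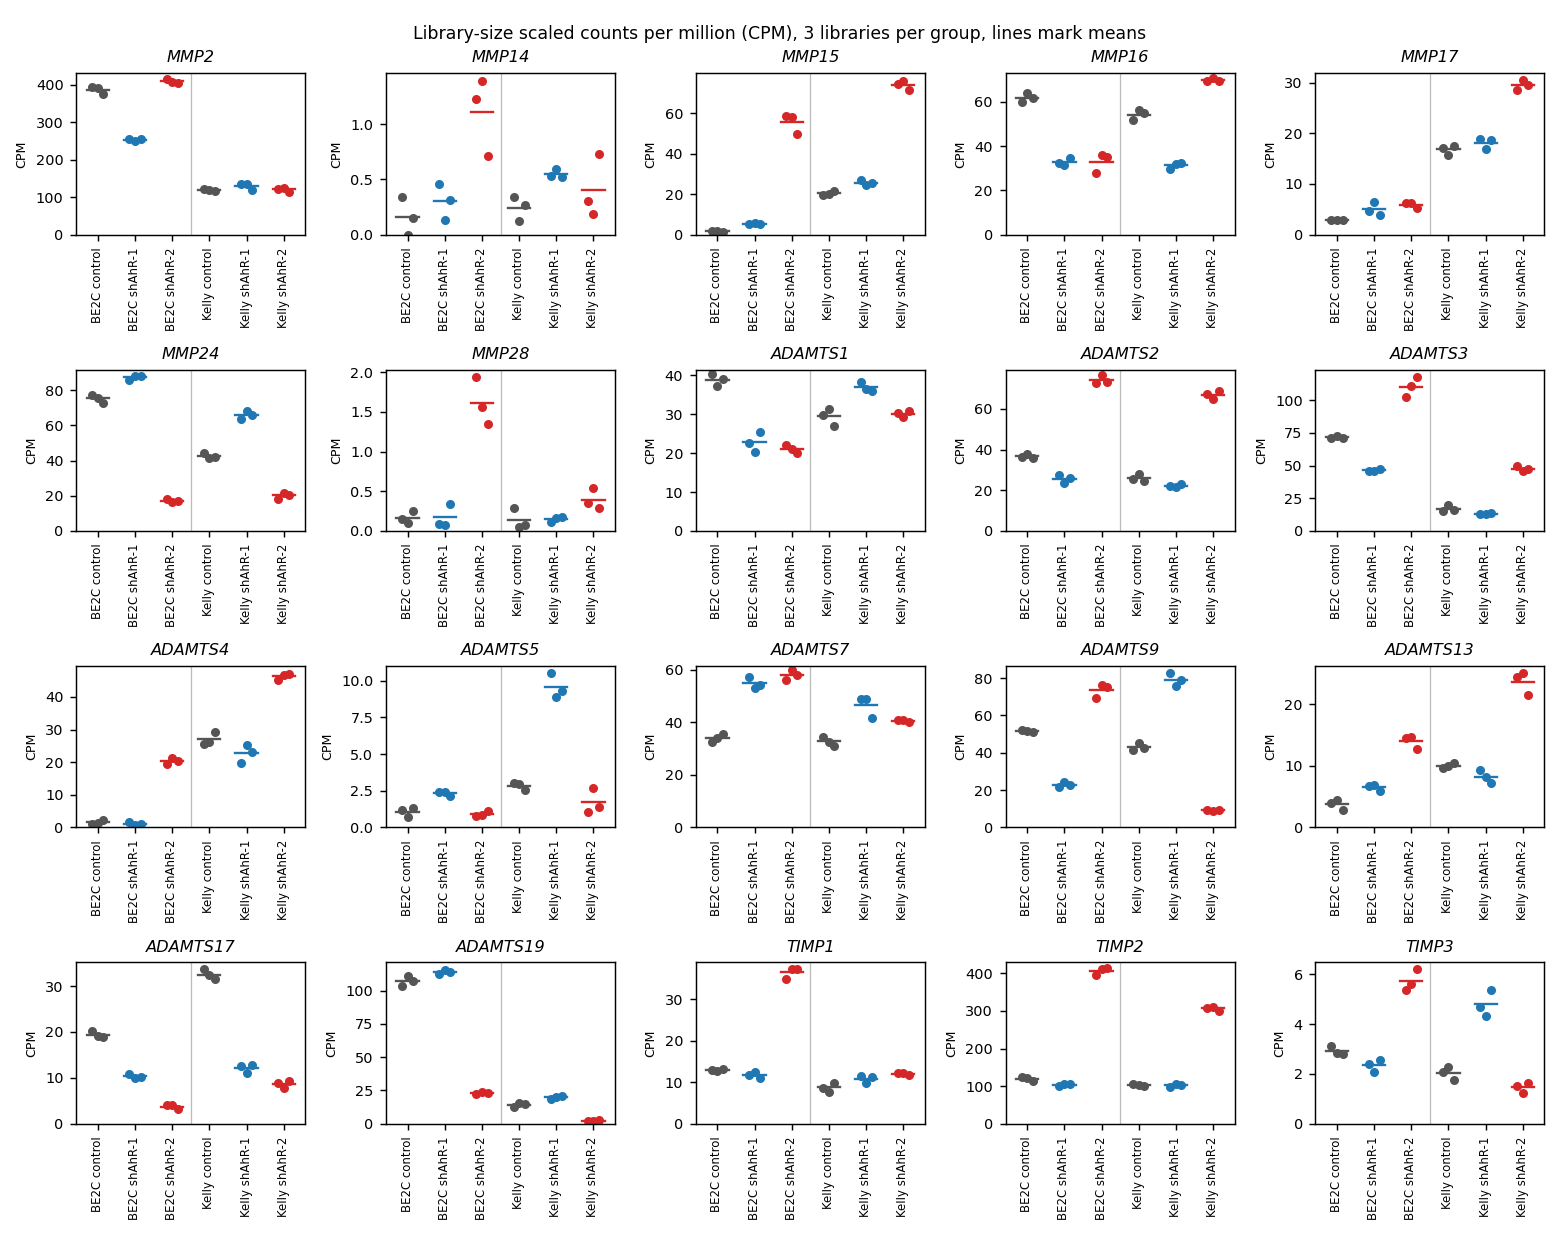
CPM of 20 members in each of the 18 libraries, one panel per gene, with the groups of BE2C left and of Kelly right of the grey line; points are libraries and short lines are group means. Drawn are the members picked by rule, without TIMP4 and with MMP2 added. The shAhR-2 libraries of both lines stand above their controls in MMP15, TIMP2, ADAMTS2 and ADAMTS3 and below them in MMP24, ADAMTS17 and ADAMTS19, while ADAMTS9 goes opposite ways in the lines.

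Summed per kilobase of exon over the 4 TIMP genes, inhibitor RNA was 31.1, 30.4 and 29.2 CPM per kb in the BE2C controls, 26.0, 27.2 and 26.3 with shAhR-1 and 94.3, 98.5 and 99.0 with shAhR-2. The sum was 24.7, 23.7 and 24.4 CPM per kb in the Kelly controls, 26.1, 26.0 and 26.6 in those labelled shAhR-1 and 63.0, 63.5 and 61.4 with shAhR-2. The TIMP sum was therefore highest in the shAhR-2 libraries of each line, and the sum over the MMP genes moved less with shAhR-2. MMP RNA was 103 ± 2.78 CPM per kb in the BE2C controls (mean ± SD, n = 3, as in the rest of this paragraph), 77.3 ± 0.462 with shAhR-1 and 106 ± 2.44 with shAhR-2. In Kelly it was 47.9 ± 0.642 in the controls, 55.4 ± 1.86 in the libraries labelled shAhR-1 and 60.6 ± 1.92 with shAhR-2. The ratio of the TIMP sum to the MMP sum went from 0.294 ± 0.00280 to 0.343 ± 0.00870 and 0.916 ± 0.0434 in BE2C and from 0.507 ± 0.00415 to 0.474 ± 0.0220 and 1.03 ± 0.0179 in Kelly. These are ratios of RNA and carry no test, because the sum is made over the chosen genes. Their size also depends on the joined exon lengths. MMP2 alone made up 76.3 ± 0.153% of the MMP sum in the BE2C controls and 50.2 ± 0.820% in the Kelly controls. TIMP2 alone made up 69.9 ± 1.04% of the TIMP sum in the BE2C controls and 74.3 ± 0.377% with shAhR-2. In Kelly its share was 74.7 ± 2.49% in the controls and 86.9 ± 0.0917% with shAhR-2, so the TIMP sum and the ratio mostly follow 1 gene. The ADAMTS sum was 52.3 ± 0.621, 46.0 ± 0.415 and 51.5 ± 1.79 CPM per kb in BE2C and 35.3 ± 1.04, 38.2 ± 0.714 and 38.0 ± 0.335 in Kelly, in the order control, shAhR-1, shAhR-2, although single ADAMTS genes changed several-fold in opposite directions.

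**Figure D4:**
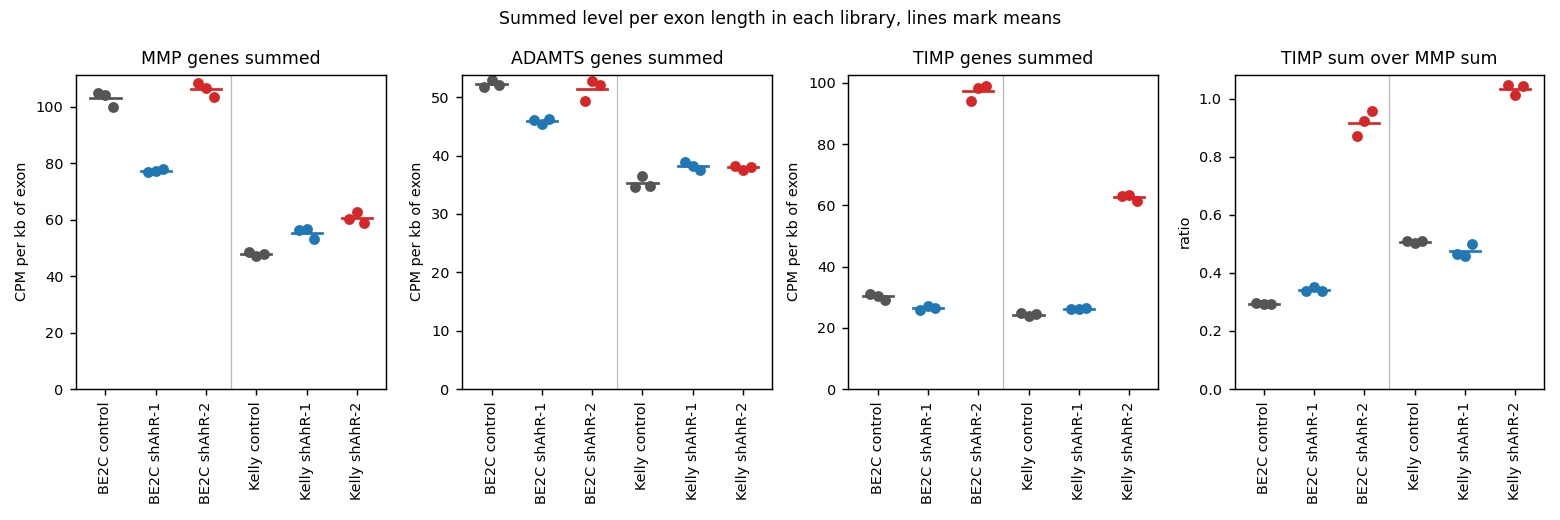
Summed CPM per kilobase of exon of the MMP, ADAMTS and TIMP genes and the ratio of the TIMP to the MMP sum in each library; points are libraries and lines are means of 3. The TIMP sum and the ratio are highest in the 3 shAhR-2 libraries of each line (ratio 0.870 to 0.956 in BE2C and 1.01 to 1.05 in Kelly), and the ADAMTS sum changes little.

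Among the gelatinases, MMP2 (ENSG00000087245.12, chromosome 16, 55389700 to 55506691, plus strand) fell in BE2C with shAhR-1 and differed little elsewhere. MMP2, MMP9 and the other members outside the 20 drawn by library were chosen for naming after their values were seen. In BE2C, MMP2 stood at 395, 393 and 374 CPM in the control libraries, 254, 251 and 255 CPM with shAhR-1 and 416, 409 and 405 CPM with shAhR-2. MMP2 in Kelly was at 121, 118 and 116 CPM in the controls, 136, 135 and 119 CPM in the libraries labelled shAhR-1 and 122, 124 and 115 CPM with shAhR-2. In BE2C the shAhR-1 libraries were the lowest by a wide margin and the shAhR-2 libraries the highest by a narrow one, and in Kelly the groups overlapped. MMP2 fell in BE2C with shAhR-1 (−0.61 ± 0.03, edgeR adjusted p = 2.22e-18). Its changes with shAhR-2 in BE2C (0.08 ± 0.03, not called without control replicate 3, shAhR-1 replicate 1 or 3, or shAhR-2 replicate 1, up to adjusted p = 0.152) and in the Kelly libraries labelled shAhR-1 (0.13 ± 0.04, overlapping groups) were small, and with shAhR-2 in Kelly it was not called (0.02 ± 0.04). MMP9 (ENSG00000100985.7, chromosome 20, 46008908 to 46016561, plus strand), gelatinase B, was too low to test in BE2C. It rose in Kelly with shAhR-2, from 0.317, 0.271 and 0.319 CPM to 1.62, 2.09 and 1.57 CPM (2.53 ± 0.36, edgeR adjusted p = 1.68e-08), and was not called in the libraries labelled shAhR-1 (−0.36 ± 0.47). MMP9 shares 18.4% of its exonic bases with SLC12A5-AS1 on the other strand, which was not called in Kelly with shAhR-2 (0.66 ± 0.43), and as the counting is not stated to use strand, reads of a gene and its antisense partner cannot be told apart here or in the antisense pairs named further on.

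All 6 membrane-type MMPs were tested in both lines. In BE2C 3 rose and 1 fell with shAhR-1 (25.2% and 27.1% of all genes), and 4 rose and 2 fell with shAhR-2 (38.0% and 37.2% of all genes). In Kelly 3 rose and 1 fell in the libraries labelled shAhR-1 (29.6% and 31.0% of all genes), and 3 rose and 1 fell with shAhR-2 (37.2% and 38.2% of all genes). With 6 genes, 1 or 2 falls are near those shares or below them. MMP15 (ENSG00000102996.4, chromosome 16, 58025566 to 58046901, plus strand), the membrane-type 2 MMP that resembles MMP14 in its substrates, had the largest rise of all members. In BE2C, MMP15 stood at 1.85, 1.52 and 1.38 CPM in the control libraries, 5.22, 5.62 and 5.22 CPM with shAhR-1 and 58.9, 58.5 and 49.9 CPM with shAhR-2. MMP15 in Kelly was at 19.8, 19.96 and 21.5 CPM in the controls, 26.9, 24.7 and 25.5 CPM in the libraries labelled shAhR-1 and 74.8, 76.2 and 71.4 CPM with shAhR-2. No hairpin group overlapped its control, and the shAhR-2 libraries stood highest in each line. The change with shAhR-2 was 5.13 ± 0.10 (edgeR adjusted p = 2.19e-29) in BE2C and 1.86 ± 0.05 (edgeR adjusted p = 8.59e-35) in Kelly. With shAhR-1 it was 1.75 ± 0.13 in BE2C, and in the Kelly libraries labelled shAhR-1 it was 0.33 ± 0.06. The BE2C controls lay far below the Kelly controls, at 0.358 against 4.62 CPM per kb, and the shAhR-2 groups reached 12.6 and 16.8 CPM per kb.

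MMP24 (ENSG00000125966.9, chromosome 20, 35226654 to 35277000, plus strand), the membrane-type 5 MMP known from the nervous system, went the other way with shAhR-2. In BE2C, MMP24 stood at 77.3, 75.6 and 72.8 CPM in the control libraries, 85.8, 88.1 and 88.0 CPM with shAhR-1 and 17.98, 16.7 and 17.1 CPM with shAhR-2. MMP24 in Kelly was at 44.4, 41.4 and 42.0 CPM in the controls, 63.9, 68.3 and 66.0 CPM in the libraries labelled shAhR-1 and 18.4, 21.5 and 20.6 CPM with shAhR-2. The groups did not overlap in either line, with shAhR-1 libraries highest and shAhR-2 libraries lowest. It fell with shAhR-2 in BE2C (−2.13 ± 0.05, edgeR adjusted p = 1.04e-27) and in Kelly (−1.08 ± 0.06, edgeR adjusted p = 1.03e-23), and it rose with shAhR-1 in BE2C (0.21 ± 0.04) and in the Kelly libraries labelled shAhR-1 (0.63 ± 0.05). MMP24 shares 21.8% of its exonic bases with genes on the opposite strand, MMP24OS among them. With shAhR-2 MMP24OS was called in neither line (0.15 ± 0.10 and 0.13 ± 0.07).

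MMP16 (ENSG00000156103.15, chromosome 8, 88032009 to 88328025, minus strand), the membrane-type 3 MMP, gave opposite calls with shAhR-2 in the lines. In BE2C, MMP16 stood at 60.1, 64.2 and 61.7 CPM in the control libraries, 32.3, 31.3 and 34.5 CPM with shAhR-1 and 28.1, 35.8 and 35.2 CPM with shAhR-2. MMP16 in Kelly was at 51.8, 56.2 and 55.0 CPM in the controls, 29.7, 32.1 and 32.2 CPM in the libraries labelled shAhR-1 and 69.3, 70.9 and 69.5 CPM with shAhR-2. Only the Kelly shAhR-2 libraries lay above their controls. MMP16 fell in BE2C with shAhR-1 (−0.92 ± 0.06) and shAhR-2 (−0.91 ± 0.06, edgeR adjusted p = 1.52e-14) and in the Kelly libraries labelled shAhR-1 (−0.79 ± 0.05), and it rose in Kelly with shAhR-2 (0.36 ± 0.04, edgeR adjusted p = 2.96e-10).

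MMP17 (ENSG00000198598.6, chromosome 12, 131828393 to 131851783, plus strand) encodes the membrane-type 4 MMP, which is held by a lipid anchor. In BE2C, MMP17 stood at 2.96, 2.93 and 2.84 CPM in the control libraries, 4.70, 6.44 and 3.84 CPM with shAhR-1 and 6.27, 6.14 and 5.29 CPM with shAhR-2. MMP17 in Kelly was at 17.1, 15.8 and 17.5 CPM in the controls, 18.9, 16.9 and 18.6 CPM in the libraries labelled shAhR-1 and 28.5, 30.5 and 29.6 CPM with shAhR-2. Both hairpin groups exceeded the controls in BE2C, and in Kelly the shAhR-2 group alone did. The rises were 0.77 ± 0.16 and 1.02 ± 0.16 in BE2C (shAhR-1, then shAhR-2) and 0.81 ± 0.07 in Kelly with shAhR-2, and the Kelly libraries labelled shAhR-1 were not called (0.11 ± 0.07).

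MMP14 (ENSG00000157227.12, chromosome 14, 22836557 to 22849027, plus strand), the membrane-type 1 MMP and main activator of proMMP2, was barely present. The BE2C libraries had 14, 0 and 6 MMP14 counts in the controls, 20, 5 and 13 with shAhR-1 and 54, 64 and 34 with shAhR-2. In Kelly there were 15, 5 and 10 counts in the controls, 18, 22 and 21 in the libraries labelled shAhR-1 and 12, 8 and 33 with shAhR-2. In CPM the BE2C controls were at 0.340, 0 and 0.148 and the shAhR-2 libraries at 1.23, 1.39 and 0.716, with no overlap. MMP14 rose in BE2C with shAhR-2 (2.76 ± 0.59, edgeR adjusted p = 8.69e-05). The call in the Kelly libraries labelled shAhR-1 (1.16 ± 0.51, edgeR adjusted p = 0.0444) was lost in 8 of 15 alternatives, up to adjusted p = 0.201 without control replicate 2. MMP25, the membrane-type 6 MMP of leukocytes, rose in BE2C with shAhR-2 (1.43 ± 0.55), a call lost without shAhR-2 replicate 1 or without control replicate 3, and it shares 35.2% of its exonic bases with MMP25-AS1 on the other strand, which rose as well (1.39 ± 0.20).

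Of the remaining MMPs, MMP28 (ENSG00000271447.5, chromosome 17, 35756249 to 35795707, minus strand), epilysin, was near 0 in the controls. Its counts in BE2C were 6, 4 and 10 in the controls, 4, 3 and 14 with shAhR-1 and 85, 72 and 64 with shAhR-2. Kelly had 13, 2 and 3 counts in the controls, 4, 6 and 7 in the libraries labelled shAhR-1 and 14, 23 and 13 with shAhR-2. Only the BE2C shAhR-2 libraries, at 1.94, 1.57 and 1.35 CPM, stood clear of the others (3.30 ± 0.49, edgeR adjusted p = 2.9e-07). The Kelly call with shAhR-2 (1.42 ± 0.59, edgeR adjusted p = 0.0273) rested on overlapping groups and was lost in 4 of 14 alternatives, up to adjusted p = 0.161 without control replicate 2. MMP11, stromelysin 3, rose in BE2C with shAhR-2 (0.98 ± 0.24) and was not called in the other 3 comparisons, and MMP21 and MMP1 were called in none. MMP23B fell in BE2C with shAhR-1 (−1.76 ± 0.62), a call lost without control replicate 1 or shAhR-1 replicate 1, and its counts are uncertain because MMP23A is a near-identical copy.

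Of the ADAMTS genes that cut proteoglycans, 1 of 5 rose and 2 fell with shAhR-1 in BE2C (25.2% and 27.1% of all genes), and 3 rose and 1 fell with shAhR-2 (38.0% and 37.2% of all genes). In Kelly 3 of 6 rose and 1 fell in the libraries labelled shAhR-1 (29.6% and 31.0% of all genes), and 1 rose and 3 fell with shAhR-2 (37.2% and 38.2% of all genes). So few genes show no direction of the class beyond these shares. ADAMTS4 (ENSG00000158859.9, chromosome 1, 161184308 to 161199056, minus strand), aggrecanase 1, had the largest rise of these. In BE2C, ADAMTS4 stood at 0.923, 1.38 and 2.37 CPM in the control libraries, 1.54, 0.837 and 1.07 CPM with shAhR-1 and 19.3, 21.4 and 20.3 CPM with shAhR-2. ADAMTS4 in Kelly was at 25.7, 26.2 and 29.3 CPM in the controls, 19.9, 25.3 and 23.1 CPM in the libraries labelled shAhR-1 and 45.2, 46.6 and 47.1 CPM with shAhR-2. The shAhR-2 libraries of both lines lay above all other libraries of their line. ADAMTS4 rose with shAhR-2 in BE2C (3.71 ± 0.17, edgeR adjusted p = 2.17e-19) and in Kelly (0.78 ± 0.06, edgeR adjusted p = 2.21e-16). In the Kelly libraries labelled shAhR-1 it fell (−0.25 ± 0.07), and in BE2C with shAhR-1 it was not called (−0.42 ± 0.24).

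ADAMTS5 (ENSG00000154736.5, chromosome 21, 26917912 to 26966513, minus strand), aggrecanase 2, rose in the shAhR-1 groups. In BE2C, ADAMTS5 stood at 1.17, 0.714 and 1.33 CPM in the control libraries, 2.39, 2.41 and 2.16 CPM with shAhR-1 and 0.798, 0.827 and 1.14 CPM with shAhR-2. ADAMTS5 in Kelly was at 3.03, 2.93 and 2.55 CPM in the controls, 10.5, 8.90 and 9.34 CPM in the libraries labelled shAhR-1 and 1.05, 2.703 and 1.37 CPM with shAhR-2. The shAhR-1 libraries of each line lay above all others of the line, and Kelly shAhR-2 overlapped its controls through 1 library at 2.703 CPM. The rise was 1.11 ± 0.27 (edgeR adjusted p = 0.000759) in BE2C and 1.75 ± 0.16 (edgeR adjusted p = 2.28e-13) in the Kelly libraries labelled shAhR-1. ADAMTS5 fell in Kelly with shAhR-2 (−0.73 ± 0.20) and was not called in BE2C with shAhR-2 (−0.21 ± 0.29).

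ADAMTS9 (ENSG00000163638.13, chromosome 3, 64515654 to 64688000, minus strand), which cuts versican and aggrecan, showed opposite directions in the lines with each hairpin. In BE2C, ADAMTS9 stood at 52.4, 51.7 and 51.3 CPM in the control libraries, 21.8, 24.0 and 22.7 CPM with shAhR-1 and 69.4, 76.5 and 75.5 CPM with shAhR-2. ADAMTS9 in Kelly was at 41.4, 45.1 and 42.6 CPM in the controls, 82.8, 75.8 and 78.9 CPM in the libraries labelled shAhR-1 and 9.12, 8.96 and 9.52 CPM with shAhR-2. No groups overlapped, and the order of the hairpin groups was reversed between the lines. In BE2C it fell with shAhR-1 (−1.18 ± 0.05, edgeR adjusted p = 6.17e-19) and rose with shAhR-2 (0.51 ± 0.05, edgeR adjusted p = 2.84e-11). Kelly showed the reverse, a rise under the label shAhR-1 (0.88 ± 0.05, edgeR adjusted p = 6.54e-22) and a fall with shAhR-2 (−2.22 ± 0.06, edgeR adjusted p = 6.78e-36). ADAMTS9-AS1, which overlaps 1.63% of the exonic bases of ADAMTS9 from the other strand, had the same signs, at −0.88 ± 0.25 and 1.64 ± 0.21 in BE2C and 0.76 ± 0.41 (not called) and −2.77 ± 0.57 in Kelly.

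ADAMTS1 (ENSG00000154734.14, chromosome 21, 26835747 to 26845409, minus strand), another versican-cutting protease, lies next to ADAMTS5 on chromosome 21. In BE2C, ADAMTS1 stood at 40.4, 37.4 and 38.9 CPM in the control libraries, 22.7, 20.2 and 25.5 CPM with shAhR-1 and 22.0, 21.1 and 19.9 CPM with shAhR-2. ADAMTS1 in Kelly was at 29.8, 31.4 and 27.0 CPM in the controls, 38.2, 36.6 and 36.0 CPM in the libraries labelled shAhR-1 and 30.3, 29.4 and 30.8 CPM with shAhR-2. It was lower in both hairpin groups of BE2C, without overlap, and not in Kelly. The falls in BE2C were −0.77 ± 0.07 with shAhR-1 and −0.89 ± 0.07 (edgeR adjusted p = 2.12e-13) with shAhR-2, against a rise of 0.33 ± 0.06 in the Kelly libraries labelled shAhR-1 and no call with shAhR-2 in Kelly (0.03 ± 0.06).

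The other proteoglycan-cutting members were expressed in 1 line or at low level. ADAMTS20 had 0 counts in the BE2C controls and 24.4, 24.6 and 23.6 CPM in the Kelly controls, where it fell with shAhR-2 to 4.52, 4.62 and 5.003 CPM (−2.36 ± 0.08, edgeR adjusted p = 1.1e-30) and was not called in the libraries labelled shAhR-1 (−0.07 ± 0.07). ADAMTS15 went from 0.291, 0.428 and 0 CPM in the BE2C controls to 2.58, 3.13 and 2.78 CPM with shAhR-2 (3.53 ± 0.43, edgeR adjusted p = 6.06e-09) and was not called in the other 3 comparisons with a control. ADAMTS8 was not tested.

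Of the 3 procollagen N-proteinases, which trim the amino-terminal propeptide of fibrillar procollagens, 3 rose in BE2C (38.0% of all genes) and 2 in Kelly (37.2% of all genes) with shAhR-2. With shAhR-1, 2 fell in BE2C (27.1% of all genes) and 2 in the Kelly libraries so labelled (31.0% of all genes). The class has too few genes to be set apart from all genes by these counts. ADAMTS2 (ENSG00000087116.15, chromosome 5, 179110851 to 179345430, minus strand) acts mainly on procollagens I and II. In BE2C, ADAMTS2 stood at 36.4, 37.7 and 36.0 CPM in the control libraries, 27.4, 23.7 and 25.9 CPM with shAhR-1 and 72.6, 76.5 and 73.0 CPM with shAhR-2. ADAMTS2 in Kelly was at 25.5, 28.1 and 24.6 CPM in the controls, 22.2, 21.8 and 23.0 CPM in the libraries labelled shAhR-1 and 67.2, 64.9 and 68.9 CPM with shAhR-2. In each line the shAhR-2 libraries were the highest and the shAhR-1 libraries the lowest, with no overlap. The rise with shAhR-2 was 1.01 ± 0.05 (edgeR adjusted p = 2.67e-18) in BE2C and 1.36 ± 0.05 (edgeR adjusted p = 7.64e-29) in Kelly. The falls were −0.51 ± 0.06 with shAhR-1 in BE2C and −0.22 ± 0.06 in the Kelly libraries labelled shAhR-1.

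ADAMTS3 (ENSG00000156140.9, chromosome 4, 72280969 to 72569386, minus strand), which also processes the lymphangiogenic factor VEGFC, followed the same order. In BE2C, ADAMTS3 stood at 71.4, 72.3 and 71.3 CPM in the control libraries, 45.7, 46.1 and 47.6 CPM with shAhR-1 and 102, 110.4 and 118 CPM with shAhR-2. ADAMTS3 in Kelly was at 15.6, 19.6 and 16.1 CPM in the controls, 12.6, 13.0 and 13.9 CPM in the libraries labelled shAhR-1 and 49.7, 45.7 and 47.5 CPM with shAhR-2. Again no groups overlapped. With shAhR-2 it rose by 0.62 in BE2C (0.62 ± 0.04, edgeR adjusted p = 2.33e-14) and by 1.48 in Kelly (1.48 ± 0.07, edgeR adjusted p = 4.82e-26) on the log2 scale, and it fell with shAhR-1 in BE2C (−0.63 ± 0.05) and in the Kelly libraries labelled shAhR-1 (−0.37 ± 0.08). ADAMTS14, the third gene of the class, rose in BE2C with shAhR-2 (1.95 ± 0.44) and was not called in the other 3 comparisons. COL1A1, a main fibrillar substrate of the class and a fibroblast marker, went from 1.44 ± 0.296 CPM in the BE2C controls to 26.8 ± 2.63 CPM with shAhR-2 (4.21 ± 0.15), and from 10.4 ± 0.657 CPM in the Kelly controls to 7.11 ± 0.437 CPM with shAhR-2 (−0.54 ± 0.13; mean ± SD, n = 3).

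ADAMTS7 (ENSG00000136378.14, chromosome 15, 78759203 to 78811431, minus strand), which cuts cartilage oligomeric matrix protein, was higher than the control in each hairpin group of each line. In BE2C, ADAMTS7 stood at 32.6, 34.1 and 35.6 CPM in the control libraries, 57.1, 53.3 and 54.2 CPM with shAhR-1 and 56.0, 60.0 and 57.9 CPM with shAhR-2. ADAMTS7 in Kelly was at 34.5, 32.5 and 31.2 CPM in the controls, 49.1, 48.9 and 41.6 CPM in the libraries labelled shAhR-1 and 40.8, 40.8 and 40.1 CPM with shAhR-2. No hairpin library overlapped the controls of its line. The changes were 0.69 ± 0.05 and 0.77 ± 0.05 in BE2C (shAhR-1, then shAhR-2) and, in the same order, 0.50 ± 0.06 and 0.31 ± 0.06 in Kelly (edgeR adjusted p at most 2.53e-06). ADAMTS12, the related protease, was well expressed in Kelly alone, where it fell from 17.9, 17.4 and 20.6 CPM to 10.5, 12.7 and 12.3 CPM in the libraries labelled shAhR-1 and 13.6, 14.1 and 14.1 CPM with shAhR-2 (−0.65 ± 0.08 and −0.42 ± 0.08).

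ADAMTS13 (ENSG00000160323.18, chromosome 9, 133414358 to 133459402, plus strand), the protease that cuts von Willebrand factor, rose with shAhR-2 in both lines. In BE2C, ADAMTS13 stood at 3.93, 4.40 and 2.84 CPM in the control libraries, 6.79, 6.91 and 5.85 CPM with shAhR-1 and 14.5, 14.7 and 12.7 CPM with shAhR-2. ADAMTS13 in Kelly was at 9.70, 9.97 and 10.4 CPM in the controls, 9.27, 8.19 and 7.19 CPM in the libraries labelled shAhR-1 and 24.4, 25.1 and 21.6 CPM with shAhR-2. The shAhR-2 libraries were the highest in each line. The change with shAhR-2 was 1.90 ± 0.13 (edgeR adjusted p = 3.21e-15) in BE2C and 1.24 ± 0.08 (edgeR adjusted p = 8.14e-19) in Kelly. ADAMTS13 also rose in BE2C with shAhR-1 (0.80 ± 0.13), and its lower level in Kelly under the label shAhR-1 (−0.29 ± 0.09) was lost without shAhR-1 replicate 3 (adjusted p = 0.0843). VWF, its substrate and an endothelial marker, went from 0.672 ± 0.125 to 7.03 ± 0.673 CPM in BE2C and from 2.42 ± 0.339 to 5.28 ± 0.323 CPM in Kelly with shAhR-2 (mean ± SD, n = 3), and it was called higher in both.

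ADAMTS17 and ADAMTS19, for which substrates are less well known, fell several-fold with shAhR-2 in both lines. ADAMTS17 (ENSG00000140470.13, chromosome 15, 99971589 to 100342005, minus strand) is a gene mutated in a syndrome of short stature and lens dislocation. In BE2C, ADAMTS17 stood at 20.1, 19.1 and 18.9 CPM in the control libraries, 10.9, 10.05 and 10.2 CPM with shAhR-1 and 3.99, 3.98 and 3.22 CPM with shAhR-2. ADAMTS17 in Kelly was at 33.6, 32.3 and 31.5 CPM in the controls, 12.6, 11.1 and 12.8 CPM in the libraries labelled shAhR-1 and 8.82, 7.73 and 9.39 CPM with shAhR-2. Every hairpin library lay below all controls of its line, and the shAhR-2 libraries lay lowest. The falls were −0.90 ± 0.09 with shAhR-1 and −2.38 ± 0.10 (edgeR adjusted p = 2.39e-20) with shAhR-2 in BE2C. In Kelly they were −1.41 ± 0.08 in the libraries labelled shAhR-1 and −1.91 ± 0.08 (edgeR adjusted p = 5.53e-28) with shAhR-2.

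ADAMTS19 (ENSG00000145808.9, chromosome 5, 129460265 to 129738683, plus strand) fell with shAhR-2 alone. In BE2C, ADAMTS19 stood at 104, 111 and 107 CPM in the control libraries, 113, 116 and 114 CPM with shAhR-1 and 22.0, 23.7 and 23.3 CPM with shAhR-2. ADAMTS19 in Kelly was at 12.8, 15.7 and 14.8 CPM in the controls, 18.4, 20.01 and 20.7 CPM in the libraries labelled shAhR-1 and 1.95, 1.83 and 2.48 CPM with shAhR-2. The shAhR-2 libraries were several-fold below all others in each line. The fall was −2.22 ± 0.04 (edgeR adjusted p = 2.08e-29) in BE2C and −2.78 ± 0.11 (edgeR adjusted p = 9.86e-28) in Kelly, whereas the libraries labelled shAhR-1 in Kelly were higher than their controls (0.46 ± 0.09). In BE2C with shAhR-1 ADAMTS19 was not called (0.09 ± 0.04, edgeR adjusted p = 0.0535), although 6 of 16 alternatives called it higher, at values of up to 0.12. ADAMTS19-AS1, which shares part of the 3.29% of overlapped exonic bases, fell with shAhR-2 as well (−1.45 ± 0.19 and −3.48 ± 0.42). ADAMTS10 rose with shAhR-2 from 0, 0 and 6 to 22, 25 and 21 counts in BE2C and from 4, 4 and 4 to 16, 25 and 16 counts in Kelly, and ADAMTS6 and ADAMTS16 were called in none of the 4 comparisons.

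The hairpins were compared directly within each line. In BE2C, 19 members were higher with shAhR-2 than with shAhR-1 (36.5% of all genes were) and 4 were lower (35.9% of all genes). ADAMTS10, ADAMTS15 and MMP28, tested only through the shAhR-2 libraries, are among the 19. In Kelly, 12 were higher (38.2% of all genes) and 11 lower (39.3% of all genes). ADAMTS9 separated the hairpins in opposite ways, by 1.69 ± 0.05 in BE2C and −3.10 ± 0.06 in Kelly. TIMP2 (1.98 ± 0.03 and 1.59 ± 0.03), MMP15 (3.38 ± 0.09 and 1.53 ± 0.05), ADAMTS2 (1.53 ± 0.05 and 1.59 ± 0.05) and ADAMTS3 (1.25 ± 0.05 and 1.85 ± 0.07) were higher with shAhR-2 in BE2C and in Kelly. MMP24 (−2.34 ± 0.05 and −1.71 ± 0.05), ADAMTS19 (−2.31 ± 0.04 and −3.24 ± 0.11) and ADAMTS5 (−1.33 ± 0.27 and −2.48 ± 0.18) were lower.

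Between the lines, which share no library, 11 of the 28 members tested in both rose with shAhR-2 in both, where 25.0% of all 14680 such genes did. They were ADAMTS2, ADAMTS3, ADAMTS4, ADAMTS7, ADAMTS10, ADAMTS13, MMP15, MMP17, MMP28, TIMP1 and TIMP2. ADAMTS17, ADAMTS19 and MMP24 fell in both, 3 of 28 where 28.0% of all genes did. ADAMTS9, MMP16 and TIMP3 were called in opposite directions, 3 of 28 where 10.4% of all genes were. The Kelly calls of MMP28 and TIMP3 in these counts are the ones lost in some alternatives. MMP28 in each line and ADAMTS10 in BE2C could be tested only through the shAhR-2 libraries and could hardly be called lower. With shAhR-1, so labelled in Kelly, 4 members rose in both lines (ADAMTS5, ADAMTS7, MMP15 and MMP24; 16.1% of all genes), 4 fell in both (ADAMTS2, ADAMTS3, ADAMTS17 and MMP16; 19.2% of all genes) and 4 were called in opposite directions (ADAMTS1, ADAMTS9, ADAMTS13 and MMP2; 5.55% of all genes).

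**Figure D5:**
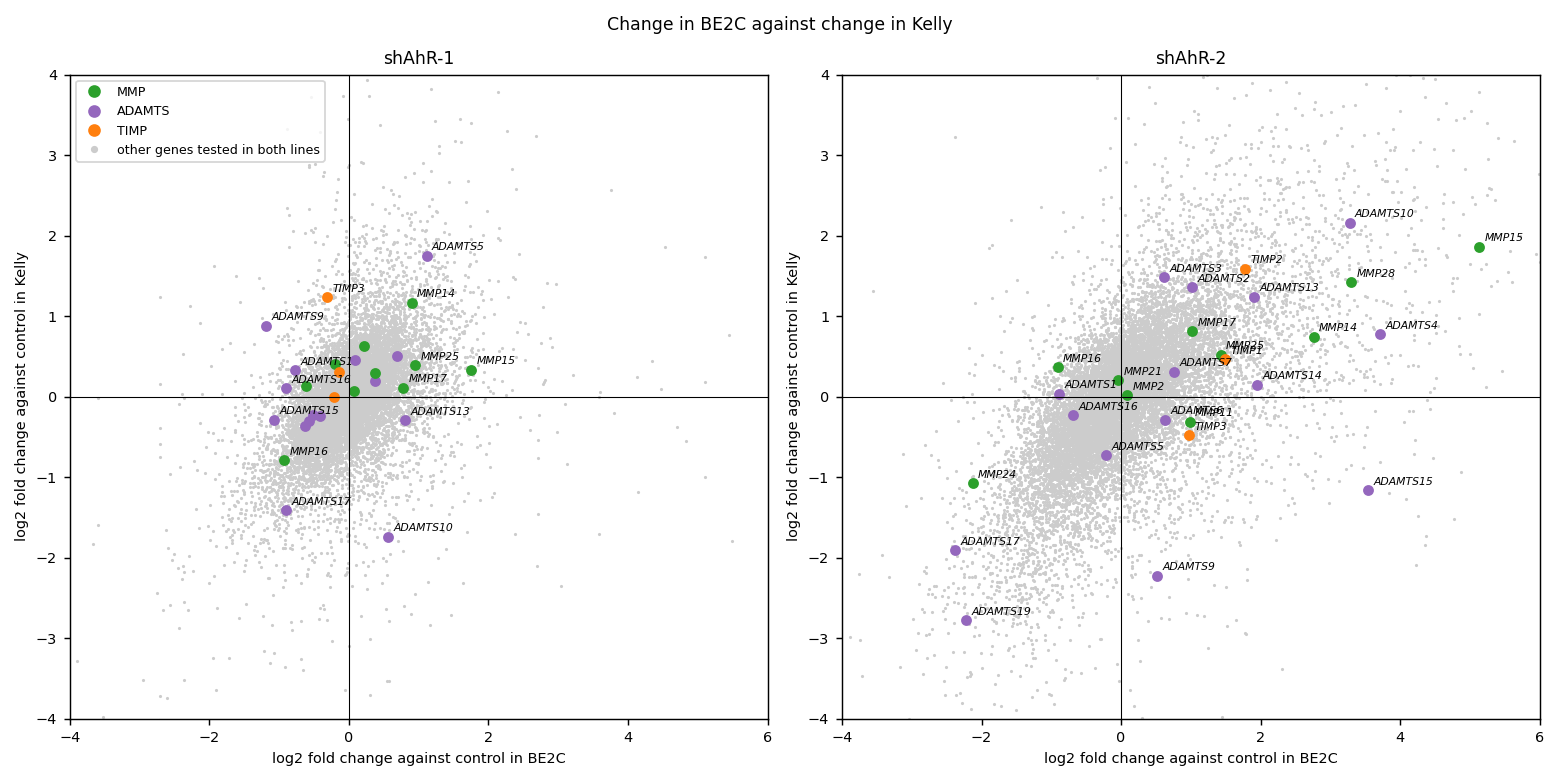
Log2 fold change against the control in BE2C (horizontal) and Kelly (vertical) for shAhR-1 (left) and shAhR-2 (right); coloured points are members, named at left where a value is at least 0.7 from 0, and grey points are the other genes tested in both lines, of which 56 at left and 198 at right lie beyond the axes. On the right, MMP15, TIMP2, ADAMTS2 and ADAMTS3 lie high in both lines, ADAMTS17, ADAMTS19 and MMP24 low in both, and ADAMTS9 at 0.51 in BE2C and −2.22 in Kelly.

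Tested as the fold change in BE2C minus that in Kelly, the shAhR-2 effect was higher in BE2C for 15 of 33 members (28.8% of all genes) and lower for 6 (25.8% of all genes). The joint fit holds 33 members, where 28 were tested in both lines, so some had too few counts in 1 line. ADAMTS20, among the 15, was too low to test in BE2C and had 0 counts in its controls there. For shAhR-1 it was higher in BE2C for 4 (17.5% of all genes) and lower for 10 (18.2% of all genes). The shAhR-2 response of MMP15 was larger in BE2C by 3.25 ± 0.12 (edgeR adjusted p = 2.08e-27), that of ADAMTS4 by 2.91 ± 0.17 and that of TIMP1 by 1.01 ± 0.12. The TIMP2 response differed by 0.17 ± 0.05 (edgeR adjusted p = 0.00221), and this call was lost with no filter on low counts (0.09, adjusted p = 0.137). For ADAMTS3 the response was larger in Kelly, with a difference of −0.88 ± 0.08 (edgeR adjusted p = 2.68e-13). The difference of MMP17 was not called (0.19 ± 0.16, edgeR adjusted p = 0.341).

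The control groups themselves differed between the lines. Among them 14 of 33 members were higher in BE2C (37.2% of all genes) and 13 in Kelly (39.0% of all genes). MMP2 (1.78 ± 0.04), ADAMTS19 (2.97 ± 0.06), ADAMTS3 (2.15 ± 0.06) and all 3 tested TIMPs (0.65 ± 0.09, 0.30 ± 0.04 and 0.59 ± 0.17 for TIMP1, TIMP2 and TIMP3) were higher in BE2C. MMP15 (−3.61 ± 0.10), ADAMTS4 (−4.04 ± 0.14), MMP17 (−2.45 ± 0.12) and ADAMTS13 (−1.35 ± 0.12) were higher in Kelly. ADAMTS20 was at least 999-fold higher in Kelly and MMP1 at least 20.5-fold higher in BE2C, each against a floor of 3 counts over the group at 0. ADAMTS12 had 2272 counts in the Kelly controls and 4 in the BE2C controls, a rate ratio of 574. Its exact 95% interval of 224 to 2108 is for counting error only and takes each count as independent, as the floor of 3 counts does. If both mates of a read pair were counted, the interval is too narrow and the fold bounds are too high.

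Upstream sequence is shown for 7 of the members that changed alike with shAhR-2 in both lines, 4 that rose and 3 that fell, chosen after their values and letters were seen. RefSeq windows of 300 bases on GRCh38.p14, from 250 before the start of transcription to 50 after it, were found for 27 members. The searched letters were the core of the AhR response element (GCGTG, or CACGC on the other strand), an AP-1 site (TGANTCA), an E-box (CACGTG) and a GC box (GGGCGG, or CCGCCC), on both strands, and none of these contains another. The AhR core was in 32.1% of the 28 member windows and in 36.5% of all 35116 windows. The AP-1 letters were in 14.3% against 7.71%, the E-box in 10.7% against 7.26% and the GC box in 67.9% against 45.0%. A match describes the letters only. In the windows below capitals mark every match. The first 4 belong to genes that rose, MMP15 (chr16:58025504-58025803, plus strand), ADAMTS2 (chr5:179345412-179345711, minus strand), ADAMTS3 (chr4:72569172-72569471, minus strand) and TIMP1 (chrX:47582186-47582485, plus strand), and the others to genes that fell, ADAMTS17 (chr15:100341926-100342225, minus strand), ADAMTS19 (chr5:129460048-129460347, plus strand) and MMP24 (chr20:35226440-35226739, plus strand).
MMP15: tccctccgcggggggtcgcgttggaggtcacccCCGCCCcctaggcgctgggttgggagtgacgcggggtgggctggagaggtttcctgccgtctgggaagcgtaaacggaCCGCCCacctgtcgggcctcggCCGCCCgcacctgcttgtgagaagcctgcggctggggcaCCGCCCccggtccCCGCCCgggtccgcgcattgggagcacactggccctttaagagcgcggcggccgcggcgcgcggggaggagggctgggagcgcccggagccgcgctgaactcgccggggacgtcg
ADAMTS2: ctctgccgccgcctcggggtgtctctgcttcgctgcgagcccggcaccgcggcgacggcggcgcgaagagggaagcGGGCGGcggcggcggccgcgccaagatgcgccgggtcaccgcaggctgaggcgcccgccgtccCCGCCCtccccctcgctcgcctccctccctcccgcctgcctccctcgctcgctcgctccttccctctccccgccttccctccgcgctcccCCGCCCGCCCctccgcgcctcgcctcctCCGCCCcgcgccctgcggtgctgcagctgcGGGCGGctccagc
ADAMTS3: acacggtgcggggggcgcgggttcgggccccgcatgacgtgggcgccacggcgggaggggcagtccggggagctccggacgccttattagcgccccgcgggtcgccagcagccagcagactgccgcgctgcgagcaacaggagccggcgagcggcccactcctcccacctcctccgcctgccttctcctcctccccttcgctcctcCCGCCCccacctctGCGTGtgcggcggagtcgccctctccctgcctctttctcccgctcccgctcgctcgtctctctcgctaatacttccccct
TIMP1: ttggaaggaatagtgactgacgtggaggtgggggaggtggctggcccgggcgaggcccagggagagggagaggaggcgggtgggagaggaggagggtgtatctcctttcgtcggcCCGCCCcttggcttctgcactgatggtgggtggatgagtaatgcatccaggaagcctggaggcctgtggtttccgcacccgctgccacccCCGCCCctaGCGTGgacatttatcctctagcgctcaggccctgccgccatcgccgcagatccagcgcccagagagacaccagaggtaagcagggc
ADAMTS17: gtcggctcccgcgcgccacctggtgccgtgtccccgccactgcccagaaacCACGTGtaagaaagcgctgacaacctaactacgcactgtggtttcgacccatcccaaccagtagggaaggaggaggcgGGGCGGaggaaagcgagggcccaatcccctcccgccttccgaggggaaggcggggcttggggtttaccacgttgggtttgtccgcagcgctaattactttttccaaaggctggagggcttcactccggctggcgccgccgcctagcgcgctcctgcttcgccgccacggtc
ADAMTS19: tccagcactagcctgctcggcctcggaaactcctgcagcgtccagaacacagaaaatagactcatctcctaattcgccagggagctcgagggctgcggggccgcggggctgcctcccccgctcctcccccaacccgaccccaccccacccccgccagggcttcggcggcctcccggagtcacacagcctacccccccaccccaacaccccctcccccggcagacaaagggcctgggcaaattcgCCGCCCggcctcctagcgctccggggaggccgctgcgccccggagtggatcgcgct
MMP24: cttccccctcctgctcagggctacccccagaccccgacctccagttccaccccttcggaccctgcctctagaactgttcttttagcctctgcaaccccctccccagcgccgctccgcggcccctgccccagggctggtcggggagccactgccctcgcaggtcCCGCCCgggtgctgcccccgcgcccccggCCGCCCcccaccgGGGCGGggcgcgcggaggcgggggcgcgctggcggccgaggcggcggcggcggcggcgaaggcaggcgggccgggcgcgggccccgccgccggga
The AhR core stood 30 bases before the start in ADAMTS3 and 36 bases before it in TIMP1, and the windows of MMP15, ADAMTS2, ADAMTS17, ADAMTS19 and MMP24 held none. MMP15 held 5 and ADAMTS2 6 GC boxes and no other searched letters. ADAMTS17 held 1 E-box and 1 GC box, ADAMTS19 1 GC box and MMP24 3 GC boxes. Of the 11 members that rose with shAhR-2 in both lines 7 had a window, and the core was in those of ADAMTS3, ADAMTS10, ADAMTS13 and TIMP1 and not in those of MMP15, ADAMTS2 and ADAMTS7. The 3 members that fell in both had windows without it.

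Other genes of the same system were read from lists of activators, inhibitors, related proteases and cell type markers. Their counts stand against 25.2% of all genes higher and 27.1% lower with shAhR-1 in BE2C, 38.0% and 37.2% with shAhR-2 in BE2C, 29.6% and 31.0% in the Kelly libraries labelled shAhR-1, and 37.2% and 38.2% with shAhR-2 in Kelly. Among 7 tested activators of the zymogens in BE2C, 2 rose and 2 fell with shAhR-1 and 3 rose and 1 fell with shAhR-2. Of 6 in Kelly, 2 rose and 2 fell in each hairpin group. FURIN, the convertase that removes the propeptide of membrane-type MMPs and ADAMTS enzymes, went from 17.0 ± 1.14 CPM to 22.5 ± 0.972 and 111 ± 5.32 CPM in BE2C and from 18.9 ± 1.21 to 21.8 ± 2.53 and 40.7 ± 1.98 CPM in Kelly (mean ± SD, n = 3). It was called higher in all 4 comparisons, at 0.40 ± 0.06, 2.699 ± 0.06, 0.21 ± 0.07 and 1.11 ± 0.07. PCSK7, a related convertase, had values of 0.13, 0.04 (not called), 0.25 and 0.26 in the same order.

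Of 15 other inhibitors, matrix binders and clearance receptors tested in BE2C, 10 rose and 1 fell with shAhR-1 and 9 rose and 1 fell with shAhR-2. Of 13 in Kelly, 8 rose and 2 fell in the libraries labelled shAhR-1, and 5 rose and 6 fell with shAhR-2. LRP1, the endocytic receptor that clears MMPs and TIMPs, rose in BE2C (0.50 ± 0.07 and 1.63 ± 0.07) and fell in Kelly (−0.54 ± 0.05 in the libraries labelled shAhR-1 and −0.19 ± 0.04 with shAhR-2).

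Of the 9 ADAM sheddases tested in BE2C, 4 rose and 3 fell with shAhR-1 and 7 rose and 2 fell with shAhR-2. The 8 tested in Kelly gave 4 rises and 3 falls in the libraries labelled shAhR-1 and 6 rises and 1 fall with shAhR-2. ADAM19 rose in all 4 comparisons (0.94 ± 0.23 and 4.75 ± 0.17 in BE2C, 1.22 ± 0.07 and 1.42 ± 0.06 in Kelly), and ADAM8 rose in BE2C (1.14 ± 0.41 and 2.46 ± 0.38) and with shAhR-2 in Kelly (2.41 ± 0.21). The ADAMTS-like genes, which lack the protease domain, gave 1 rise of 4 with shAhR-1 and 2 of 4 with shAhR-2 in BE2C. In Kelly 3 of 3 fell in the libraries labelled shAhR-1, and 1 rose and 1 fell with shAhR-2. THSD4 rose in BE2C (1.81 ± 0.56 and 4.11 ± 0.48), and ADAMTSL2 fell in Kelly (−0.33 ± 0.12 and −0.93 ± 0.12). Of the other secreted matrix proteases, 5 of 5 rose in BE2C and 4 of 6 rose in Kelly with shAhR-2, with none lower. With shAhR-1, 2 of 5 rose and 2 fell in BE2C, and 1 of 6 rose and 2 fell in the Kelly libraries so labelled. CTSK, the collagen-degrading cathepsin K, was at 0.50 ± 0.11 and 1.06 ± 0.11 in BE2C and −0.39 ± 0.16 and 0.86 ± 0.14 in Kelly. BMP1, which trims the other end of procollagens, was at 0.53 ± 0.07, 0.68 ± 0.07, 0.82 ± 0.07 and −0.12 ± 0.08 (the last not called).

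Several members are also made by fibroblasts, glia, endothelium or leukocytes, so markers of those cells were measured in the same libraries, and fewer cells of a type cannot be told apart from less RNA per cell in bulk RNA. The 10 fibroblast markers summed to 236 to 245 CPM in the BE2C controls, 225 to 232 CPM with shAhR-1 and 381 to 389.7 CPM with shAhR-2, where 6 of 8 rose, 1 fell and COL1A2 had 0 counts. In Kelly they summed to 308 to 328 CPM in the controls, 239 to 259.8 CPM in the libraries labelled shAhR-1 and 192 to 198 CPM with shAhR-2, where 1 of 7 rose, 4 fell and COL1A2 and POSTN had 0 counts. With shAhR-2 this sum was higher in BE2C and lower in Kelly. Of the 28 members tested in both lines, 11 rose in both, TIMP2, ADAMTS2 and MMP15 among them, and 3 fell in both. TIMP3 and ADAMTS9 were called higher in BE2C and lower in Kelly, the Kelly call of TIMP3 being lost in some alternatives. MMP16 was called lower in BE2C and higher in Kelly. Any link between the sum and the members' changes was not tested. The 6 Schwann cell and glial markers summed to 2.47 to 3.35 CPM in the BE2C controls and 13.1 to 13.8 CPM with shAhR-2, and to 3.05 to 3.85 and 9.78 to 10.2 CPM in Kelly, with 4 markers higher in each line. The 5 endothelial markers summed to 1.19 to 1.85 CPM in the BE2C controls and 7.66 to 8.79 CPM with shAhR-2. In Kelly that sum was 2.79 to 3.64 CPM in the controls and 5.20 to 5.74 CPM with shAhR-2, and most of it was VWF in the shAhR-2 groups. With shAhR-1 the endothelial sum was 0.602 to 1.19 CPM in BE2C, and it was 1.05 to 1.66 CPM in the Kelly libraries so labelled. Of the 12 neuroblastoma markers, 9 fell with shAhR-2 in each line, and 9 in BE2C and 7 in Kelly fell in the shAhR-1 groups. The part of these marker changes in the members' values was not tested.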

How the data were processed

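RNA of 18 libraries was measured, 3 in each of 6 groups, with totals of 32799682 to 45469353 counts per library. The authors deposited raw counts per gene, 1 table for each line. Per the submitters' processing notes CASAVA 1.8.2, STAR 2.7.9a and the build GRCh38.p7 were used. The counter, the annotation behind it and any use of strand are not given in the sources at hand. Between 68.3% and 72.5% of counts from 1 to 20 were even, so both mates of a read pair were possibly counted. Intervals and floors are for counting error only and take each count as independent. If both mates were counted, the intervals are too narrow and the floors too low.

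Counts were tested with edgeR 4.0.16 (filterByExpr, trimmed mean of M values, glmQLFit and glmQLFTest) in R 4.3.3, with 1 fit over the 9 libraries of each line and 1 joint fit for the comparisons between lines. P-values were adjusted by Benjamini-Hochberg over all genes of the fit, with a threshold of 0.05. The fits were tried on simulated counts with 200 changed genes, drawn with the spread of the fit itself. Far more genes were called in the data, so that trial cannot show how the fits behave there. The joint fit held 17136 genes. Exon lengths, gene positions and overlaps came from GENCODE 29. Lengths join the exons of all transcripts of a gene.

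The members and the gene lists were chosen with earlier results of these data known. Values in every library are given for the 4 TIMPs and the 16 other members with the largest fold change among those called in at least 2 hairpin comparisons and reaching a mean of 1 CPM. These are the 20 members given by library further on, and MMP2, also given by library, is outside this rule. From each other list at most 2 genes called alike with both hairpins of a line, those with the largest change, are named, besides genes that overlap a member or are its substrate. Alternatives were DESeq2 1.42.0, other scaling and filters, halved counts, only the groups compared, a replicate term and each library left out.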

Additional observations from a re-analysis of the deposited data

Results flagged for a closer look

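For many of the 20 members given by library, the response to a hairpin differed between the lines. The edgeR test was of the difference itself (fold change in BE2C minus fold change in Kelly, log2, adjusted p below 0.05 over all genes). Apart from the TIMPs these members were chosen for large changes in the same data, so the list does not measure how common such differences are. Over all genes, the difference was called above 0 for 17.5% and below 0 for 18.2% with shAhR-1. With shAhR-2 these shares were 28.8% and 25.8%. For shAhR-1, in the libraries so labelled, the difference was below 0 for ADAMTS9 (−2.05), TIMP3 (−1.54), ADAMTS1 (−1.09), TIMP1 (−0.45), MMP24 (−0.41), ADAMTS19 (−0.36), ADAMTS2 (−0.28), ADAMTS3 (−0.25) and TIMP2 (−0.20), and above 0 for ADAMTS17 (0.52), MMP17 (0.67), ADAMTS13 (1.10) and MMP15 (1.43). For shAhR-2 the difference was below 0 for MMP16 (−1.29), MMP24 (−1.07), ADAMTS1 (−0.94), ADAMTS3 (−0.88), ADAMTS17 (−0.48) and ADAMTS2 (−0.37), and above 0 for TIMP2 (0.17), ADAMTS7 (0.44), ADAMTS19 (0.54), ADAMTS13 (0.65), TIMP1 (1.01), TIMP3 (1.44), MMP14 (2.00), ADAMTS9 (2.72), ADAMTS4 (2.91) and MMP15 (3.25). With shAhR-2 the differences of MMP14, lost in 10 of 23 alternatives, and TIMP2, lost with no filter on low counts, were the unstable ones, and with shAhR-1 that of ADAMTS3, lost in 4 of 24.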

How the results depend on the processing

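All 338 alternative counts of called members stayed within 1.5 times the reported count. The 20 members given by library had 3187 alternative fold changes. Of these, 3112 kept their side of the threshold, 46 were no longer called and 29 were newly called. Among values called in either setting 0 changed sign, and the signs of values called in neither were not compared. Apart from the TIMPs these members were chosen for large changes. The total leaves out less stable members such as MMP23B and MMP25, whose lost calls are given with the results. Besides the losses given with the results, MMP28 between the hairpins in Kelly was lost in 8 of 14 alternatives and ADAMTS7 between the controls in 5 of 25. With the replicate number as a block, BE2C shAhR-2 gave 19 members higher and 5 lower, and Kelly shAhR-2 13 higher and 8 lower. Among the fold changes of the 20 members the block ended 2 calls (MMP28 between the hairpins in Kelly and ADAMTS7 between the controls) and added 2 (ADAMTS19 in BE2C with shAhR-1 and ADAMTS7 between the lines with shAhR-1). Among the other members it ended those of MMP1 between the hairpins in BE2C and of MMP9, MMP25 and ADAMTS16 between the controls. Deviations of same-numbered libraries correlated at −0.019 to 0.026, and those of other pairs at −0.029 to 0.022. No deviation shared by number was seen, which cannot show that such libraries were handled apart. Depth limits the members with few counts, above all MMP14, MMP28, MMP25 and MMP23B.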
